A study of Mus musculus with 6 samples.

Results

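The genes described here are the numbered members of 10 families of developmental transcription factors outside the Hox clusters, the Pax-, Lhx-, Six-, Dlx-, Irx-, Msx-, Emx-, Meis-, Pbx- and Nkx-named genes. They were chosen by gene symbol alone, as a family name followed by a number (for Nkx, by 2 numbers joined by a hyphen). Of the 16668 genes listed, 48 were members. A mean above 0.5 RPKM (read number scaled to exon length and to mapped reads, a level that can be compared between genes of different length) was reached by 14 of the 48.

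RNA-seq was performed on total RNA of E14 mouse embryonic stem (mES) cells of the 129/Ola strain, a line that grows without feeder cells, after transfection with siRNA. All 6 libraries came from cells kept in 2i medium with LIF, so the controls shared these inhibitors and this cytokine with the other groups. By label there were 2 libraries of each of 3 groups, called control, Ring1B-KD and Dzip3-KD. Ring1B, the product of Rnf2, and Dzip3 are the targets of the siRNA, and both attach ubiquitin to histone H2A. The study describes the duplicates as biological. All cells belonged to 1 line, and p-values measure the spread between these libraries.

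The condition word in the name of each deposited file (control, Ring1BKD or Dzip3KD) differed from the label in 4 of the 6 libraries. The files are numbered 1 to 6. Files 1, 2 and 3, here called file set 1, were named control, Ring1BKD and Dzip3KD and were labelled control 1, control 2 and Ring1B-KD 1. Files 4, 5 and 6, file set 2, carried the same 3 names in the same order, with the label Ring1B-KD 2 on the first of them, Dzip3-KD 1 on the next and Dzip3-KD 2 on the last. Libraries are therefore given by name within a file set with the label beside them, and neither is taken to show that a knockdown took place.

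Most of these genes encode proteins that bind DNA through a homeodomain, and Pax proteins carry a paired domain with or without a homeodomain. They pattern the embryo: Pax and Lhx genes act in neural tube, eye and kidney, Six-family and Pax genes in sensory placodes, Irx and Nkx genes in the subdivision of the neural tube and in heart, and Msx and Dlx genes in limb and face. Pbx and Meis proteins differ in that they serve as partners of other homeodomain proteins in many tissues. In embryonic stem cells, promoters of many such genes are rich in CpG and are bound by Polycomb complexes, of which Ring1B is a component.

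The promoters of 4 members are shown because later results turn on these genes: Nkx6-2 and Nkx1-2 were the members that differed between file sets past the threshold, Irx2 had the smallest p of the members by file name, and Msx2 was lower in every library of file set 2 without passing the threshold. Each window runs from 250 bases before to 50 bases after the RefSeq start. The letters come from RefSeq and were placed on mm9 by an exact match, at chr7:146768647-146768946 (minus strand) for Nkx6-2, chr7:139791271-139791570 (minus strand) for Nkx1-2, chr13:72766018-72766317 (plus strand) for Irx2 and chr13:53568100-53568399 (minus strand) for Msx2. Each window reaches into the first bases of the transcribed gene. Capitals mark CpG dinucleotides, read 5′ to 3′.
Nkx6-2: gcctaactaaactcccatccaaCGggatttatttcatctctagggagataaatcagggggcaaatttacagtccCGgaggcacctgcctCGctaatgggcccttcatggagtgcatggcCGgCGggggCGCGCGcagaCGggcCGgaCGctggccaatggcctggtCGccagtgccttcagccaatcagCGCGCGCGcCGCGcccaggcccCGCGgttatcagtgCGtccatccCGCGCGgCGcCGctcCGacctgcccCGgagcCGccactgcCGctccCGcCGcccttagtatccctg
Nkx1-2: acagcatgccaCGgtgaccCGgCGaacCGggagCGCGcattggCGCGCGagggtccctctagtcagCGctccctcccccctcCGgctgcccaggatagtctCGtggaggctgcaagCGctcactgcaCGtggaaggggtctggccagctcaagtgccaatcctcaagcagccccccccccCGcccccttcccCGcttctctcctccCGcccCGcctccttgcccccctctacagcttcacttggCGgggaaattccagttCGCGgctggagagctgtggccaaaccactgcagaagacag
Irx2: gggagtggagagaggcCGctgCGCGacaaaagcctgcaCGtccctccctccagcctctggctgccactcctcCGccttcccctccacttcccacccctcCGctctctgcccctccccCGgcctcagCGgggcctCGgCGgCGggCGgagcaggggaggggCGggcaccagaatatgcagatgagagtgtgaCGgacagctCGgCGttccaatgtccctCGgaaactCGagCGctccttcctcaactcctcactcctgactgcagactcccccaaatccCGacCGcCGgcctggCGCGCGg
Msx2: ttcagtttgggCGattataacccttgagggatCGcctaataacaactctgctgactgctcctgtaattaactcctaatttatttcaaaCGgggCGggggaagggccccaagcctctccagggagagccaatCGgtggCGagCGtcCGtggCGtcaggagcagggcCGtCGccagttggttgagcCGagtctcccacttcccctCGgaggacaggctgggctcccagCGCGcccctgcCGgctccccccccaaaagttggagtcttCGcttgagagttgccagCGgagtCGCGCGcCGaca

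The window of Nkx6-2 held 32 CpG, that of Irx2 25, that of Msx2 22 and that of Nkx1-2 21. A RefSeq window was matched for 38 of the 48 members. The median was 19 CpG over 11 members with a mean of at least 0.5 RPKM and 18 over 27 members below it. Among the other listed genes the medians were 21 at or above 0.5 RPKM (8723 genes) and 9 below it (3580 genes). At least 15 CpG were found in 90.9% of the higher members and 63.0% of the lower ones, against 72.9% and 36.1% of other genes at the same levels. The members below 0.5 RPKM thus had CpG counts near those of expressed genes in these windows, given as a description without a test. TATAAA, searched only on the strand of the gene, occurred in 1 of the 38 member windows (2.6%) and in 4.9% of the other windows. None of the 4 windows above held it.

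Depth was derived from the spacing of low RPKM values and annotated exon lengths, and each library had between 3015349 and 3583612 mapped reads. On a 2 kb transcript, 3 reads were then worth 0.419 to 0.497 RPKM, so 0.5 RPKM is close to the floor for a typical member. Intervals and floors on reads cover counting error only. Correlations of log2(RPKM + 1) between libraries were 0.960 to 0.974 within a file set and 0.940 to 0.957 between sets. The targeted genes were read first as a check of the labels, and Rnf2 went against them. Rnf2 was at 30.6 (labelled control 1), 20.4 (control 2) and 26.8 RPKM (Ring1B-KD 1) in file set 1, and at 28.8 (Ring1B-KD 2), 19.4 (Dzip3-KD 1) and 28.2 RPKM (Dzip3-KD 2) in file set 2. The lowest Rnf2 value in each file set was thus in the library named Ring1BKD, with a log2 difference from the one named control of -0.56 in set 1 and -0.54 in set 2 (limma adjusted p = 0.232). Dzip3 was at 2.24, 2.68 and 1.18 RPKM in file set 1 and at 1.89, 1.70 and 1.31 RPKM in file set 2, lowest in each set in the library named Dzip3KD (labelled Ring1B-KD 1 and Dzip3-KD 2; -0.45 with a standard error (SE) of 0.21, limma adjusted p = 0.754). By label, both Dzip3-KD libraries also lay below both controls for Dzip3 (-0.47, SE 0.24, limma adjusted p = 0.458), and Rnf2 in Ring1B-KD was at 0.15 (SE 0.24, limma adjusted p = 0.965). The library labelled Ring1B-KD 1 had the lowest Dzip3 value of all. All 10 ES cell markers exceeded 10 RPKM on average, and their summed level was 1580 to 2040 RPKM. Markers of other lineages were lower but not absent: 3 of 6 neural, 2 of 5 mesoderm, 1 of 5 primitive endoderm, 2 of 4 listed trophectoderm and 1 of 3 listed fibroblast markers had a mean above 0.5 RPKM. Tubb3, a neuronal tubulin, was the highest of the neural markers with a mean of 19.8 RPKM, and Neurog2, a neurogenic factor, was at 0 in 5 of the 6 libraries.

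Most listed members were low in these cells: 29.2% of the 48 averaged at least 0.5 RPKM, against 69.2% of all 16668 listed genes. The annotation (GENCODE M1) names 61 protein-coding genes that fit the symbols, and 13 of them were not listed: Dlx4, Dlx5, Dlx6, Emx2, Irx6, Lhx1, Nkx2-1, Nkx2-6, Nkx3-2, Nkx6-1, Pax4, Pax5 and Six6. All genes in the lists were above 0 in at least 1 library. Of the listed members, 16 were above 0 in all 6 libraries and 9 in only 1. The 48 members summed to between 33.2 and 39.7 RPKM per library, below the mean level of Klf4 alone (50.9 RPKM), a pluripotency factor.

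The families differed in how many members were expressed. All 4 Pbx genes, 3 of 5 Six-family genes and 2 of 3 Meis genes had a mean above 0.5 RPKM. The same held for 3 of 10 Nkx genes, 1 of 5 Irx genes and 1 of 3 Msx genes. None of the 7 Pax, 7 Lhx, 3 Dlx and 1 Emx genes listed did so. The count hardly moved between libraries: 14 members exceeded 0.5 RPKM in the libraries labelled control 1 and Ring1B-KD 1 and 15 in each of the others. It depended on how the level was asked for, since 8 members exceeded 0.5 RPKM in every library and 23 in at least 1, and 9 had a mean above 1 RPKM.

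**Figure D1:**
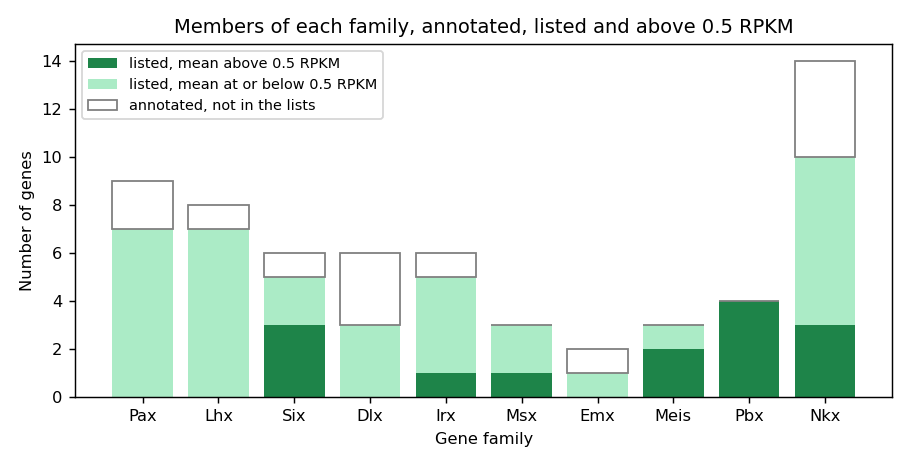
Number of genes (vertical axis) in each family (horizontal axis), divided into members with a mean above 0.5 RPKM over the 6 libraries, other listed members, and annotated genes that are not in the lists. All 4 Pbx genes lie above 0.5 RPKM, while Pax, Lhx, Dlx and Emx have no member above it.

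Whole reads could be recovered for 46 of the 48 members (not for Nkx6-2 and Msx1). These members held 2528 reads over the 6 libraries, and 59.4% of them lay in Six4, Meis2 and Pbx2. At least 10 reads in every library were reached by 8 members, and 25 members had under 10 reads in all libraries together. Statements on single genes below about 1 RPKM therefore rest on a handful of reads. Where no annotated exon length matched, a count is the fewest whole reads that fit the values.

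Pbx proteins are partners that bind DNA together with Hox and other homeodomain proteins. Theirs was the only family with every listed gene at a mean above 0.5 RPKM. In every library, this level was exceeded by 2 of 4 Pbx genes and 3 of 5 Six-family genes. Pbx2 was at 4.74, 3.33 and 4.34 RPKM in file set 1 (labelled control 1, control 2 and Ring1B-KD 1) and at 7.35, 5.46 and 5.38 RPKM in file set 2 (labelled Ring1B-KD 2, then Dzip3-KD 1 and 2). Pbx3 was at 1.63, 1.33 and 3.32 RPKM in set 1 and at 1.27, 1.61 and 1.27 RPKM in set 2, so that only the library labelled Ring1B-KD 1 (named Dzip3KD) lay above 2 RPKM, on 32 reads against 12 to 15 elsewhere. For Pbx2, every value of file set 2 was above every value of file set 1. Pbx4 was at 0.492, 0.216 and 0 RPKM in set 1 and at 0.674, 0.909 and 0.829 RPKM in set 2, from at most 4 reads in any library.

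Meis proteins bind DNA with Pbx proteins as partners. Meis2 was at 4.79, 4.70 and 5.85 RPKM in file set 1 and at 5.97, 4.18 and 3.71 RPKM in file set 2, with 70 to 104 reads per library. Its highest value (labelled Ring1B-KD 2, named control) and its lowest value (labelled Dzip3-KD 2, named Dzip3KD) both lay in set 2, so the sets overlapped. Meis1 was at 0.771, 0.932 and 0.517 RPKM in set 1 and at 0.264, 0.534 and 0.568 RPKM in set 2. Meis3 had 4 reads in all.

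Six-family proteins act with Eya cofactors in placode, muscle and kidney development. Six4 was the highest member, with a mean of 6.31 RPKM. It was at 5.06, 4.92 and 6.33 RPKM in set 1 and at 8.53, 6.04 and 7.01 RPKM in set 2, with 85 to 157 reads per library. The value labelled Ring1B-KD 2 was the highest, and the sets overlapped between 6.04 and 6.33 RPKM. Six5 was at 1.39, 1.33 and 1.77 RPKM in set 1 and 1.59, 1.07 and 1.66 RPKM in set 2. Six2 (6 reads in all) and Six3 (1 read), which pattern kidney and forebrain, were barely sampled.

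Irx2, of the Iroquois family that subdivides neural and cardiac tissue, was the only Irx gene above 0.5 RPKM on average. It was at 3.10, 4.62 and 2.65 RPKM in set 1 (23, 39 and 22 reads) and at 2.21, 3.85 and 2.27 RPKM in set 2 (18, 31 and 20 reads). In each set the library named Ring1BKD, labelled control 2 and Dzip3-KD 1, was the highest. Irx5 had 5 of its 10 reads in the library labelled control 2 and 3 in that labelled Dzip3-KD 1, the same pair. Irx3 went the other way. Of its 13 reads, 1 lay in each library of this pair and 4 in each of those labelled Ring1B-KD 1 and Ring1B-KD 2. Irx1 and Irx4 had 4 and 3 reads.

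Nkx genes are regional regulators of neural tube, gut and heart. Nkx6-2, known from ventral neural progenitors and oligodendrocytes, was at 2.26, 3.40 and 2.33 RPKM in set 1 and at 0.635, 0.642 and 1.17 RPKM in set 2. Nkx1-2, known from the caudal epiblast, was at 1.05, 1.23 and 1.09 RPKM in set 1 on 6, 8 and 7 reads, and at 0, 0 and 0.293 RPKM in set 2 on 0, 0 and 2 reads. Both genes were higher in every library of file set 1, and for Nkx1-2 a count of 0 still allows up to 3 reads. Nkx2-9 was at 1.32, 0.928 and 2.60 RPKM in set 1 and at 0.723, 0.487 and 0.222 RPKM in set 2, on 1 to 11 reads. The other 7 Nkx genes had a mean between 0.0386 and 0.357 RPKM, and Nkx2-5, a cardiac regulator, was the highest of them with 11 reads.

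Msx genes act downstream of BMP signals in limb, neural crest and face. Msx2 was at 1.38, 1.08 and 1.37 RPKM in set 1 and at 0.840, 0.283 and 0.516 RPKM in set 2, on 2 to 10 reads per library. All 3 libraries of set 1 lay above all 3 of set 2. Msx1 had a mean of 0.394 RPKM, with 0.951 RPKM in the library labelled Dzip3-KD 1 and 0 in that labelled Ring1B-KD 1. Msx3 had 5 reads in all.

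**Figure D2:**
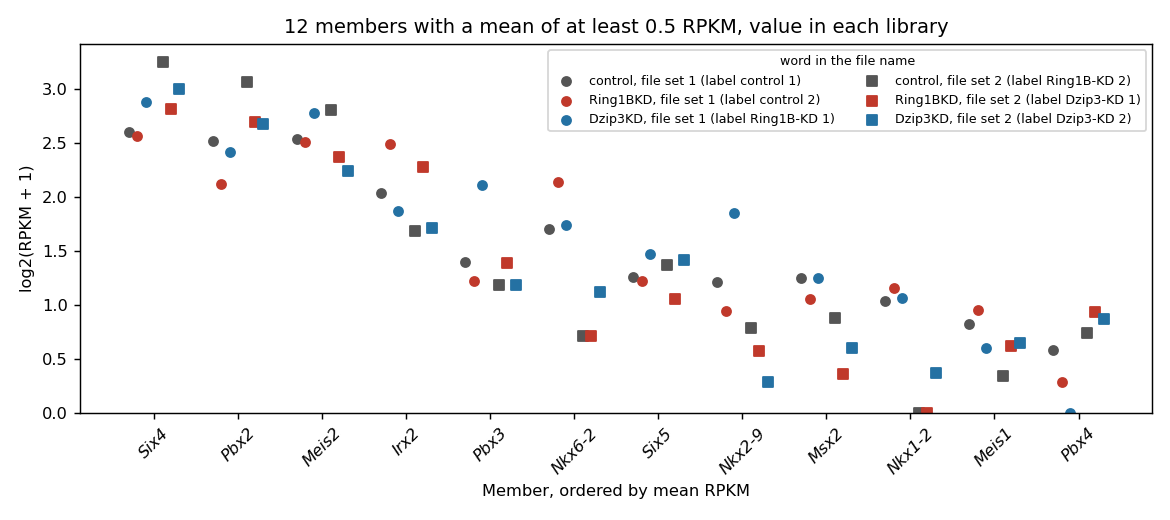
Level of 12 members with a mean of at least 0.5 RPKM, as log2(RPKM + 1) on the vertical axis, with members ordered by mean RPKM on the horizontal axis. Each point is 1 library, coloured by the word in its file name, with circles for file set 1 and squares for file set 2. For Nkx6-2, Nkx1-2, Nkx2-9 and Msx2 the squares lie below the circles, and for Pbx2 and Pbx4 above them.

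Pax, Lhx, Dlx and Emx genes, regulators of neural, eye, kidney and craniofacial development, were close to the detection limit throughout. Lhx6 (26 reads), Lhx2 (24 reads) and Pax6 (17 reads) were the most sampled of them. Lhx6, known from interneurons, was at 0.556, 0.571 and 0.497 RPKM in set 1 and at 0.169, 0.171 and 0.234 RPKM in set 2, with 6 to 7 reads per library against 2 to 3. Pax6, an eye and forebrain regulator, had 9 of its 17 reads in the library labelled Dzip3-KD 2 (named Dzip3KD, 0.682 RPKM) and 0 to 3 in each of the others. Lhx2 was at 0.107 RPKM in the library labelled Ring1B-KD 2 and at 0.414 to 0.594 RPKM in the others. Pax2, Pax3, Pax8, Lhx5, Lhx8 and Dlx3 rested on 1 read each.

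The 33 members below 0.5 RPKM with recovered reads were also summed by library. File set 1 held 27, 40 and 38 reads on them, and file set 2 held 25, 37 and 37 reads. Scaled to mapped reads (RPM), these sums were 8.95, 11.7 and 11.3 in set 1 and 7.56, 11.3 and 10.3 in set 2. The library named control was the lowest in each set (labelled control 1 and Ring1B-KD 2), and these sums are given as a description without a test. Over all listed genes, the library named control also had the most genes at 0 in each set. There were 2622, 2126 and 2328 such genes in set 1, and 2360, 2138 and 2096 in set 2. Sparse low genes in the libraries named control were thus not particular to the members. Reads were seen on 13, 18 and 22 of the 33 genes in set 1 and on 14, 21 and 17 in set 2.

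**Figure D3:**
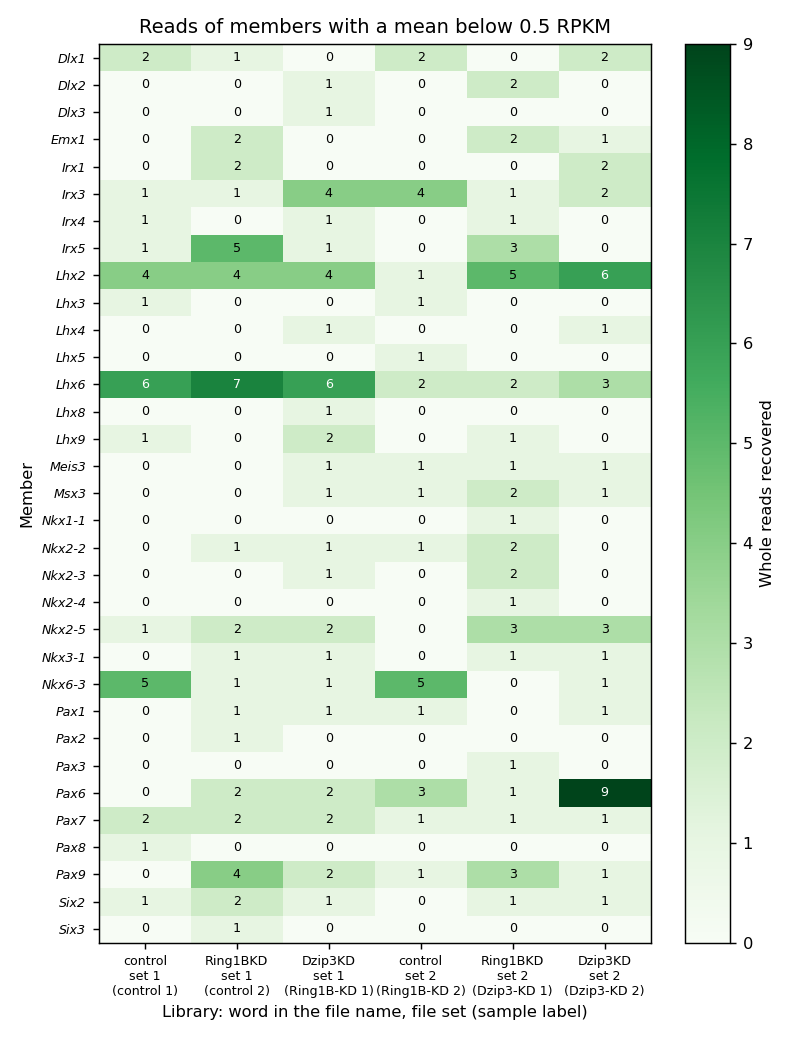
Whole reads (number and shade in each cell) of the 33 members with a mean below 0.5 RPKM and recovered reads, with members as rows and libraries as columns, each column giving the word in the file name, the file set and the label. Most cells hold 0 to 2 reads, and the largest count is the 9 reads of Pax6 in the library labelled Dzip3-KD 2.

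Comparison by file name asks whether the members changed with the named knockdown inside each file set. No member passed the threshold for the name Ring1BKD or Dzip3KD. The fit (limma on log2(RPKM + 1), 11538 genes averaging 0.5 RPKM or more, file set as a block, Benjamini-Hochberg adjustment) tested 14 members. For Ring1BKD (labelled control 2 and Dzip3-KD 1) against control (labelled control 1 and Ring1B-KD 2), 0 of 14 members and 0.416% of all genes had an adjusted p under 0.05, and the 48 genes called were all higher. At an unadjusted p under 0.05, 1 member and 8.31% of all genes were counted. For Dzip3KD (labelled Ring1B-KD 1 and Dzip3-KD 2) against control, 0 of 14 members and 0.0% of all genes were called, and 0 members and 6.52% of all genes (752) had an unadjusted p under 0.05. By limma with voom weights on recovered reads, 0 members were called in either comparison. Leaving out the library labelled Dzip3-KD 1 reduced the 48 genes to 3. For Dzip3KD the count was 4 without the library labelled Ring1B-KD 2 and 1 without that labelled Dzip3-KD 2.

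The member counted for Ring1BKD was Irx2. The mean of the libraries named Ring1BKD was 4.23 ± 0.540 RPKM (SD, n = 2), against 2.65 ± 0.626 RPKM (SD, n = 2) for those named control and 2.46 ± 0.270 RPKM (SD, n = 2) for those named Dzip3KD. The log2 difference between Ring1BKD and control was 0.46 in set 1 and 0.60 in set 2, and the fitted value was 0.53 (SE 0.18, limma adjusted p = 0.480). It lay between 0.44 and 0.61 when any library was left out. By label the same libraries fall in different groups, and Irx2 in Ring1B-KD minus control was then -0.49 (SE 0.27, limma adjusted p = 0.902). The direction of Irx2 against control thus depended on whether file names or labels defined the groups, and it passed the adjusted threshold in neither.

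Pbx2 came next for Ring1BKD, with -0.41 in set 1 and -0.37 in set 2 and a fitted value of -0.39 (SE 0.18, limma adjusted p = 0.613). Msx2 was at -0.36 (SE 0.22) and Six4 at -0.23 (SE 0.19), with limma adjusted p of 0.680 and 0.766. Without the library labelled control 1, Six4 was at -0.47, and without Ring1B-KD 2 at 0.00. Msx2 was at -0.21 without Ring1B-KD 2. For Dzip3KD, the smallest adjusted p of any member was 0.799. Pbx2 (-0.25, SE 0.18), Nkx6-2 (0.22, SE 0.24) and Pbx4 (-0.22, SE 0.25) were among those with the smallest p, with limma adjusted p of 0.814, 0.887 and 0.887. These values rest on single libraries. Nkx6-2 was at -0.08 without the library labelled Dzip3-KD 2 and at 0.52 without Ring1B-KD 1. Pbx4 was at 0.07 without control 1, 0.01 without Ring1B-KD 1, -0.52 without Ring1B-KD 2 and -0.46 without Dzip3-KD 2, so its direction turned. Pbx2 was at -0.09 without Dzip3-KD 2 and at -0.40 without Ring1B-KD 1. Pbx3 was at 0.72 in set 1 and at 0.00 in set 2 for Dzip3KD, a difference carried by the library labelled Ring1B-KD 1. Without that library its fitted value was -0.09, against 0.36 with all 6 and 0.81 without Dzip3-KD 2. Nkx2-9 was at 0.63 in set 1 and -0.50 in set 2, so its direction differed between the sets. The median over the 14 members was -0.12 for Ring1BKD and 0.03 for Dzip3KD, against -0.08 and -0.03 over all genes tested. The signs were also split, with 6 members above 0 and 8 below for Ring1BKD, and 8 above and 6 below for Dzip3KD.

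None of the 14 tested members differed by over 1.5-fold from the library named control in the same direction in both sets. Over all genes tested this was met by 1.45% (higher) and 0.797% (lower) for Ring1BKD, and by 0.468% (higher) and 0.390% (lower) for Dzip3KD. Among the 34 members below the filter, Nkx6-3, known from the stomach, did so for Ring1BKD. It was at 0.742, 0.130 and 0.133 RPKM in set 1 (5, 1 and 1 reads) and at 0.677, 0 and 0.125 RPKM in set 2 (5, 0 and 1 reads), highest in each set in the library named control (labelled control 1 and Ring1B-KD 2). The difference on log2(RPKM + 1) was -0.62 and -0.75 for Ring1BKD, and -0.62 and -0.58 for Dzip3KD. Emx1 went the other way for Ring1BKD, at 0.58 in set 1, just short of 1.5-fold, and 0.61 in set 2. It had 0 to 2 reads per library. These are counts near the detection limit and were not tested, and the shares above cover only genes that passed the filter. Among all 48 members, the library named Ring1BKD was the highest in both sets for 5 (Emx1, Irx2, Irx5, Pax9 and Six2), or 10.4%, against 9.65% of all listed genes. The library named Dzip3KD was the highest in both sets for 3 (Lhx4, Pax6 and Six5), or 6.25%, against 12.1% of all listed genes. Of these 8 genes, only Irx2 and Six5 had a mean above 0.5 RPKM. The shares of members named here were not above the background of the lists for Dzip3KD and lay near it for Ring1BKD.

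Between the libraries named Dzip3KD and Ring1BKD, 0 members and 0.676% of genes (78) were called, and 1 member and 10.1% of genes had an unadjusted p under 0.05. That member was again Irx2, at -0.60 (SE 0.18, limma adjusted p = 0.324), with -0.62 in set 1 and -0.57 in set 2. Six5 (0.30, SE 0.20), Six4 (0.25, SE 0.19), Pbx3 (0.35, SE 0.28) and Msx2 (0.22, SE 0.22) followed, with limma adjusted p between 0.668 and 0.795. The direction of Pbx3 turned, to -0.11 without the library labelled Ring1B-KD 1 and -0.02 without control 2, and it was at 0.71 without Dzip3-KD 1 and 0.80 without Dzip3-KD 2. Six4 ranged from 0.09 without Ring1B-KD 1 to 0.41 without Dzip3-KD 2, and Msx2 was at 0.12 without Dzip3-KD 1. With voom weights, 0 members were called here too. The 78 genes became 172 without the library labelled control 1, 171 without Ring1B-KD 2, 26 without Ring1B-KD 1, 39 without Dzip3-KD 1 and 40 without Dzip3-KD 2. This comparison shares its Ring1BKD libraries with the one against control, so the Irx2 values are not independent of each other.

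**Figure D4:**
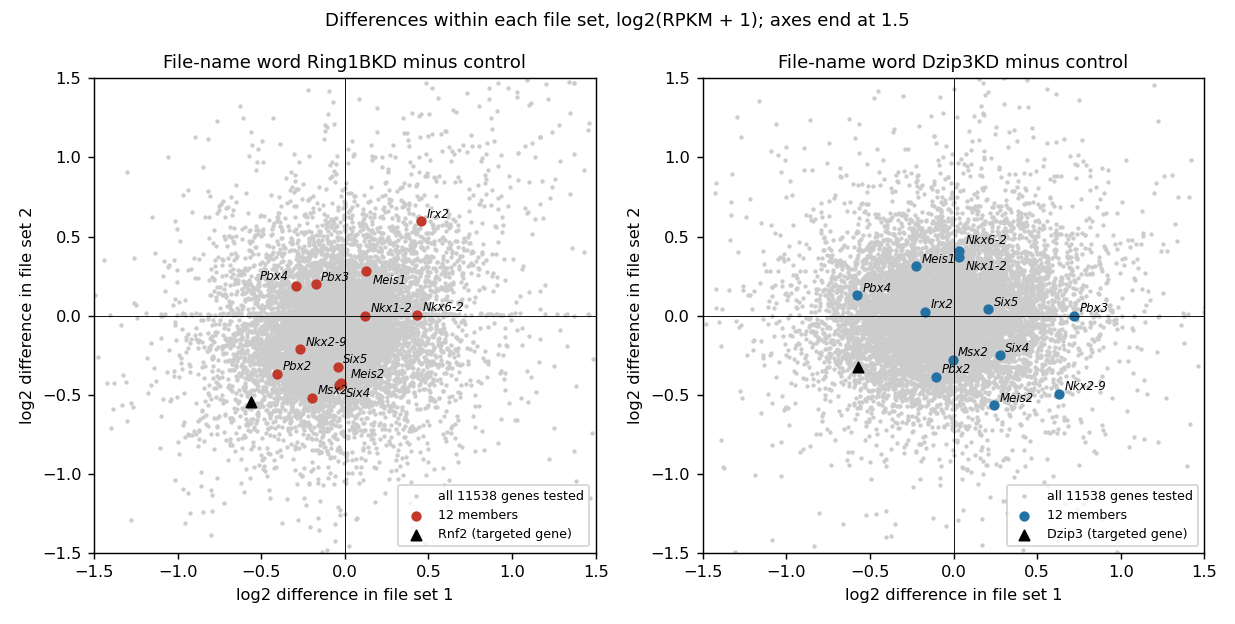
Difference from the library named control in log2(RPKM + 1), in file set 1 on the horizontal axis and file set 2 on the vertical axis, for Ring1BKD (left) and Dzip3KD (right), with 12 members as coloured points, all 11538 genes tested in grey and the targeted gene as a triangle. Points beyond 1.5 are not drawn, and Irx2, at 0.46 and 0.60, is the member farthest into the upper right corner for Ring1BKD.

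More members passed the threshold between the file sets than by name. Between files 4 to 6 and files 1 to 3, with the name as a term in the same fit, 2 of 14 members were called, against 7.62% of all genes (455 higher and 424 lower in set 2, or 564 and 341 after scaling to a common 75th percentile). Both, Nkx6-2 and Nkx1-2, were lower in file set 2. The number of genes called fell from 879 to between 351 and 509 whichever library was left out. At an unadjusted p under 0.05, 7 of 14 members were counted, against 26.5% of all genes. In these whole-culture samples, fewer cells of a type and less RNA per cell cannot be told apart. What distinguished the sets in the laboratory was not tested, since neither labels nor names describe it.

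Nkx6-2 averaged 2.67 ± 0.640 RPKM (SD, n = 3) in file set 1 and 0.816 ± 0.307 RPKM (SD, n = 3) in file set 2, a fitted log2 difference of -1.01 (SE 0.20, limma adjusted p = 0.0249). Nkx1-2 averaged 1.12 ± 0.0937 RPKM (SD, n = 3) in set 1 and 0.0978 ± 0.169 RPKM (SD, n = 3) in set 2, a difference of -0.96 (SE 0.19, limma adjusted p = 0.0250). It passed the filter at 0.5 RPKM only through set 1, where it was high, so its call is not independent of the filter. Both calls rest on few libraries. Nkx6-2 had an adjusted p of 0.0952 without the library labelled control 2 and 0.0869 without that labelled Dzip3-KD 1 (limma). Nkx1-2 had 0.0529 without control 1, 0.0988 without control 2, 0.0525 without Ring1B-KD 2 and 0.0933 without Dzip3-KD 1. With all listed genes in the fit, the adjusted p of Nkx6-2 was 0.123 and that of Nkx1-2 was 0.0973 (limma).

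Libraries did not overlap between the file sets for 4 members that were lower in set 2 (Msx2, Nkx1-2, Nkx2-9 and Nkx6-2), or 28.6% of the 14, where 15.5% of all genes tested did so. The 3 members that were higher in set 2 without overlap, Pbx2 and Pbx4 among them, made up 21.4%, where 13.1% of all genes did so. Some members passed the filter at 0.5 RPKM only through the set where they were higher. Among them were Nkx1-2, Nkx2-9 (0.477 RPKM in set 2) and Pbx4 (0.236 RPKM in set 1). These shares, and the member counts between sets, are therefore a description only. For Nkx2-9 the fitted difference was -0.79 (SE 0.26) and for Msx2 -0.57 (SE 0.18), with limma adjusted p of 0.0983 and 0.0881. Pbx2 was at 0.46 (SE 0.14) and Pbx4 at 0.56 (SE 0.20), with limma adjusted p of 0.0911 and 0.130. The sign of these 6 differences (Nkx6-2, Nkx1-2, Nkx2-9, Msx2, Pbx2 and Pbx4) was the same under every alternative run for them, including both other scalings. In the voom fit on recovered reads, which could not include Nkx6-2, the members called included Nkx1-2 (-2.84, adjusted p = 0.0115), Pbx2 (0.59, adjusted p = 0.0375) and Six4 (0.44, adjusted p = 0.0383). The median difference was -0.19 over the members and -0.04 over all genes.

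**Figure D5:**
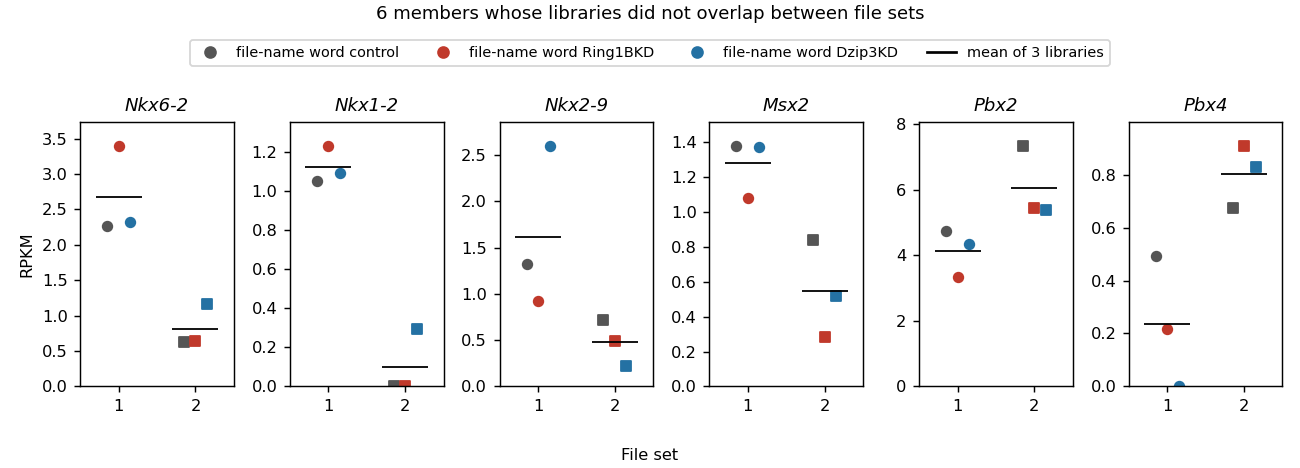
RPKM (vertical axis, from 0, with its own scale for each gene) of 6 members whose libraries did not overlap between file sets 1 and 2 (horizontal axis). Points are single libraries coloured by the word in the file name, and the black line is the mean of the 3 libraries. Nkx6-2, Nkx1-2, Nkx2-9 and Msx2 are lower in set 2, and Pbx2 and Pbx4 higher.

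Of the markers of other lineages, Nes and Krt8 passed the threshold between the sets. Nes, an intermediate filament of neural progenitors, was higher in set 2 (0.88, limma adjusted p = 0.0221). Krt8, an epithelial keratin in the trophectoderm list, was lower in set 2 (-1.14, limma adjusted p = 0.0199), while the other tested gene of that list, Krt18, was at 0.12 (limma adjusted p = 0.727). The summed level of the 4 listed trophectoderm markers was 2.17 to 5.85 RPKM in set 1 and 0.907 to 1.93 RPKM in set 2. The 5 primitive endoderm markers summed to 1.46 to 2.61 RPKM in set 1 and 0.888 to 1.06 RPKM in set 2, and Dab2, the 1 tested, was at -0.68 (limma adjusted p = 0.0541). The 6 neural markers summed to 18.8 to 27.4 RPKM in set 1 and 26.0 to 37.6 RPKM in set 2, so their ranges overlapped. The 5 mesoderm markers (2.74 to 3.34 and 2.52 to 3.76 RPKM) and the 3 listed fibroblast markers (1.18 to 3.10 and 2.16 to 2.30 RPKM) also overlapped between sets. Of the 10 ES cell markers, 4 were called between the sets. Only Tdgf1 was higher in set 2 (0.58, limma adjusted p = 0.0229). The others called were lower, Utf1 among them (-0.67, limma adjusted p = 0.0147). The part of these cell types in the members' differences was not tested.

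By label, Dzip3-KD against control sets 2 libraries of file set 2 against 2 of file set 1, so group and file set cannot be told apart. No member and 0.0% of all genes were called, and 4 members, Msx2, Nkx1-2 and Nkx6-2 among them, against 12.2% of all genes, had an unadjusted p under 0.05. Over all genes, 25 were called without the library labelled Ring1B-KD 1 and 27 without Ring1B-KD 2. The 4 members are among those that did not overlap between the file sets. Nkx6-2 was at -1.0 (SE 0.35), Nkx1-2 at -0.91 (SE 0.36) and Msx2 at -0.67 (SE 0.25), with limma adjusted p between 0.344 and 0.388. Nkx2-9 was at -0.65 (SE 0.35, limma adjusted p = 0.475). For Nkx6-2 and Nkx1-2, the library labelled Ring1B-KD 2 had values near those labelled Dzip3-KD, within file set 2. Within file set 1, Ring1B-KD 1 had values of these genes near those labelled control. This was less so for Msx2, where Ring1B-KD 2 (0.840 RPKM) lay above both Dzip3-KD libraries (0.283 and 0.516 RPKM). For Nkx2-9, Ring1B-KD 1 (2.60 RPKM) lay above both controls (1.32 and 0.928 RPKM). Ring1B-KD 2 (0.723 RPKM) lay above both Dzip3-KD libraries (0.487 and 0.222 RPKM) for Nkx2-9.

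For Ring1B-KD against control by label, each file set contributed 1 Ring1B-KD library and both controls lay in set 1. No member and 0.0% of genes were called. Six4 was the member with an unadjusted p under 0.05, against 5.10% of all genes. It averaged 4.99 RPKM by the label control and 7.43 RPKM by the label Ring1B-KD, a difference of 0.48 (SE 0.21, limma adjusted p = 0.902). By file name, Six4 was at -0.23 for Ring1BKD. Nkx6-2 (-0.70, SE 0.35), Irx2, Meis1 (-0.42, SE 0.24) and Pbx2 (0.42, SE 0.26) followed by label, with limma adjusted p from 0.902 to 0.904. These too moved with single libraries. Nkx6-2 was at -0.19 without the library labelled Ring1B-KD 2 and -1.21 without Ring1B-KD 1, and Pbx2 was at 0.10 and 0.74. Six4 was at 0.29 without Ring1B-KD 2, and Irx2 at -0.26 without control 2. The median over the members was 0.08 for Ring1B-KD and -0.14 for Dzip3-KD by label, against -0.02 and -0.07 over all genes.

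Partners and cofactors of these families were taken as a list of 31 names, of which 24 were listed and 17 tested. By file name, 0 were called for Ring1BKD or Dzip3KD (limma). At an unadjusted p under 0.05, 2 were higher and 2 lower for Ring1BKD, against 8.31% of all genes in either direction, and 0 for Dzip3KD, against 6.52%. Lmo4, a LIM-only protein that competes with Lhx proteins for the adaptor Ldb1, was at 4.37, 7.83 and 6.36 RPKM in set 1 and at 2.95, 4.48 and 3.95 RPKM in set 2. Its lowest value in each set was in the library named control (0.59 for Ring1BKD, SE 0.17, limma adjusted p = 0.377). It was also lower in set 2 (-0.57, limma adjusted p = 0.0485), the only 1 of the 17 called between sets, where 7.62% of all genes were called. Lmx1a, a LIM homeobox gene of dopaminergic and roof plate progenitors, was at 1.89, 3.06 and 0.977 RPKM in set 1 and at 0.635, 2.02 and 0.418 RPKM in set 2. As with Irx2, the library named Ring1BKD was the highest in each set (0.69, SE 0.21, limma adjusted p = 0.409). Ldb1, the adaptor of LIM homeodomain proteins, was at 22.6, 16.7 and 19.2 RPKM in set 1 and at 24.8, 16.6 and 27.1 RPKM in set 2, lowest in each set in the library named Ring1BKD (-0.48, SE 0.16, limma adjusted p = 0.440). Eya1, a cofactor of Six-family proteins, was at -0.48 (SE 0.21, limma adjusted p = 0.599). Eya3 had a mean of 7.04 RPKM and the TALE proteins Tgif1 and Pknox1, of the class that holds Meis and Pbx, had means of 39.5 and 3.54 RPKM.

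Some members lie next to each other. Within 300 kb on mm9, the listed neighbours included Dlx1 and Dlx2, Nkx2-2, Nkx2-4 and Pax1, Nkx2-9 and Pax9, and Six2 and Six3. None of these groups had more than 1 member above 0.5 RPKM on average. Pax9 lies 78.5 kb from Nkx2-9 and had 6 reads in set 1 and 5 in set 2, with 4 and 3 of them in the libraries named Ring1BKD. Dlx1, Msx1 and Six3 have an antisense or opposite-strand gene in the lists, and whether strand was used in counting was not stated, so their low values are uncertain.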

How the data were processed

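Total RNA of 6 libraries was made into stranded mRNA libraries and sequenced on a MiSeq. The authors aligned reads to mm9 with the Illumina Analysis Pipeline, counted reads mapped uniquely to a gene and deposited RPKM values, 1 list per library. Annotation and versions were not given in the sources used here. RPKM corrects for depth and exon length but not for RNA composition. The lists hold 16668 genes, none at 0 in all libraries.

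Members were taken by symbol. Members, cofactor and marker lists were chosen with earlier results of these data known. Groups by label and by file name were fitted separately on log2(RPKM + 1) by limma (version 3.58.1, R 4.3.3; variance trend, mean of at least 0.5 RPKM, two-sided, Benjamini-Hochberg, threshold 0.05); fold changes on this scale understate low genes. The file-name fit had file set as a block. Per-library values were given for members with a mean of at least 1 RPKM and for the 5 smallest p of each comparison; others named were chosen after their values were seen. Some members and 1 marker are counted but not reported singly here. Whole reads were recovered for 15207 genes (91.2%), with values under 0.001 RPKM taken as 0. Locations came from GENCODE M1, and 3753 of the 15207 genes matched an exon length annotated there. For the others, the length was derived from the RPKM values with the fewest whole reads that fit. Their reads, and the voom fit on them, may therefore be too low. Recovered genes held 754740 of the 3015349 mapped reads in the library labelled control 1. Alternatives were pseudocount 0.1, other filters and scalings, voom on recovered reads, other blocks and leaving out each library.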

Additional observations from a re-analysis of the deposited data

How the results depend on the processing

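No member was called by file name under any alternative run, nor by label. Called genes for Ring1BKD against control numbered 48, and 21 with a pseudocount of 0.1, 0 with no filter, 101 with voom on recovered reads, 0 with no file set block and 3 to 61 with a library left out. For Dzip3KD against control, 0 became 4 with voom and 0 to 4 with a library left out. For Dzip3KD against Ring1BKD, 78 became 42 with a pseudocount of 0.1, 0 with no filter, 142 with voom, 0 with no file set block and 26 to 172 with a library left out. Between file sets, 879 became 0 with no filter, 1577 with voom and 351 to 509 with a library left out, and 2 called members became 0 with no filter, 0 with a filter at 2 RPKM (where both fall below the filter), 4 with voom and 0 to 2 with a library left out. For Dzip3-KD against control by label, 0 became 1 with the replicate number as a block and 0 to 27 with a library left out, the latter without either library labelled Ring1B-KD. The replicate block left the other label comparisons at 0. Deviations of same-numbered libraries from their label group correlated at -0.24 to 0.04. The Ring1B-KD libraries span both file sets and the other groups do not, so this cannot show whether the numbers pair libraries. The members above 0.5 RPKM were 14, or 8 if required in every library, 23 in any library and 9 at a threshold of 1 RPKM. The cause of these shifts was not tested. With no filter, more low genes were tested. Depth limits every member under about 10 reads, that is, 25 of 48 over all libraries.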

Other observations

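Genes with a related name that the symbol rule leaves out were also read. Paxip1, a partner of H3K4 methyltransferase complexes named for its binding to Pax proteins, had a mean of 8.31 RPKM, and Paxbp1 had 4.36 RPKM. Pbxip1, named for binding to Pbx proteins, was at 3.40, 5.33 and 3.77 RPKM in file set 1 and at 7.02, 6.35 and 7.29 RPKM in file set 2. Its libraries did not overlap between the sets, with a fitted log2 difference of 0.63 (SE 0.17, limma adjusted p = 0.0626). By file name, Pbxip1 was at 0.20 (SE 0.21) for Ring1BKD and 0.08 (SE 0.21) for Dzip3KD. The antisense or opposite-strand genes Dlx1as, Six3os1 and Msx1os had means of at most 0.0355 RPKM. The values of Msx1os lay below what 1 read could give.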
